A study of Mus musculus with 10 samples.

Results

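The Homer proteins, the Dlg scaffolds of the postsynaptic density and a set of proteins that act with them on glutamate receptors were followed in mouse visual cortex after removal of one eye. The 10 genes were Homer1, Homer2, Homer3, Dlg1, Dlg3, Dlg4, Nrgn, Cnih2, Cacng2 and Nsf. They were chosen by name, and every probe set of the array that the platform annotation gives to one of these genes alone was used: 11 of 12422 probe sets that are no controls, 2 for Homer1 and 1 for each of the others. All mice were wild-type C57Bl6, lost one eye at postnatal day 14 and were killed at postnatal day 18, 4 days after surgery. Visual cortex of the deprived group (5 samples) was contralateral to the lost eye, and that of the non-deprived group (5 samples) ipsilateral to it, also in operated mice. Cortex of unoperated mice was not analysed here, so a difference is one between hemispheres after surgery. The labels call the samples pooled and name 4 mice, without saying how animals were shared out, so the p-values measure only the spread between these samples, which may in part be technical.

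At excitatory synapses the postsynaptic density is a protein lattice beneath the membrane that holds glutamate receptors in place. Homer proteins bind metabotropic glutamate receptors, inositol trisphosphate receptors and Shank scaffolds through an EVH1 domain, and their long forms join these partners by coiled-coil multimers. A short form of Homer1 that lacks the coiled coil is induced by neuronal activity and uncouples the long forms. Dlg1, Dlg3 and Dlg4 (SAP97, SAP102 and PSD-95) are membrane-associated guanylate kinases that bind NMDA receptors and AMPA receptor complexes through PDZ domains. Cacng2 (stargazin) and Cnih2 (cornichon homolog 2) are auxiliary proteins of AMPA receptors, Nsf is an ATPase that disassembles SNARE complexes and binds an AMPA receptor subunit, and Nrgn (neurogranin) binds calmodulin when calcium is low.

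Median signals, in the arbitrary units of the array, ran from 190.8 to 208.7. The beta-actin 3' over 5' signal ratio, a measure of RNA integrity, ran from 1.43 to 1.90. Between any 2 arrays the log2 signals of the tested probe sets correlated at 0.954 to 0.979 (Pearson, across probe sets, which are not independent). Of 8 excitatory cortical neuron markers, Tbr1, Neurod6, Neurod2 and Camk2a had a probe set, and all 4 passed the signal filter. Their summed signal ran from 7427 to 9766 in deprived and from 7858 to 9368 in non-deprived cortex. In whole tissue, fewer cells of a type and less RNA per cell cannot be told apart.

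None of the 10 genes passed the test between deprived and non-deprived cortex. Differences were taken as deprived minus non-deprived on the scale log2(signal + 16), in a limma fit over the 7453 probe sets whose mean lay at or above the 40th percentile. That filter kept 10 of the 11 member probe sets, at least 1 for every gene. At an adjusted p of 0.05 limma called 0 of the 10, and 0% of all 7453 (smallest adjusted p 0.0503). In the alternative settings it called up to 6 of all tested probe sets, 6 with the replicate number as a block, and no member. At an unadjusted p under 0.05, 1 of the 10 stood out, Cnih2, against 4.79% of all tested probe sets, and 2.43% of them in its direction, higher in deprived cortex. The 2 groups of arrays overlapped for every member, while they did not overlap for 0.953% of all tested probe sets. The median difference of the members was -0.01, with 4 above and 6 below 0, and that of all tested probe sets was 0.0066.

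**Figure D1:**
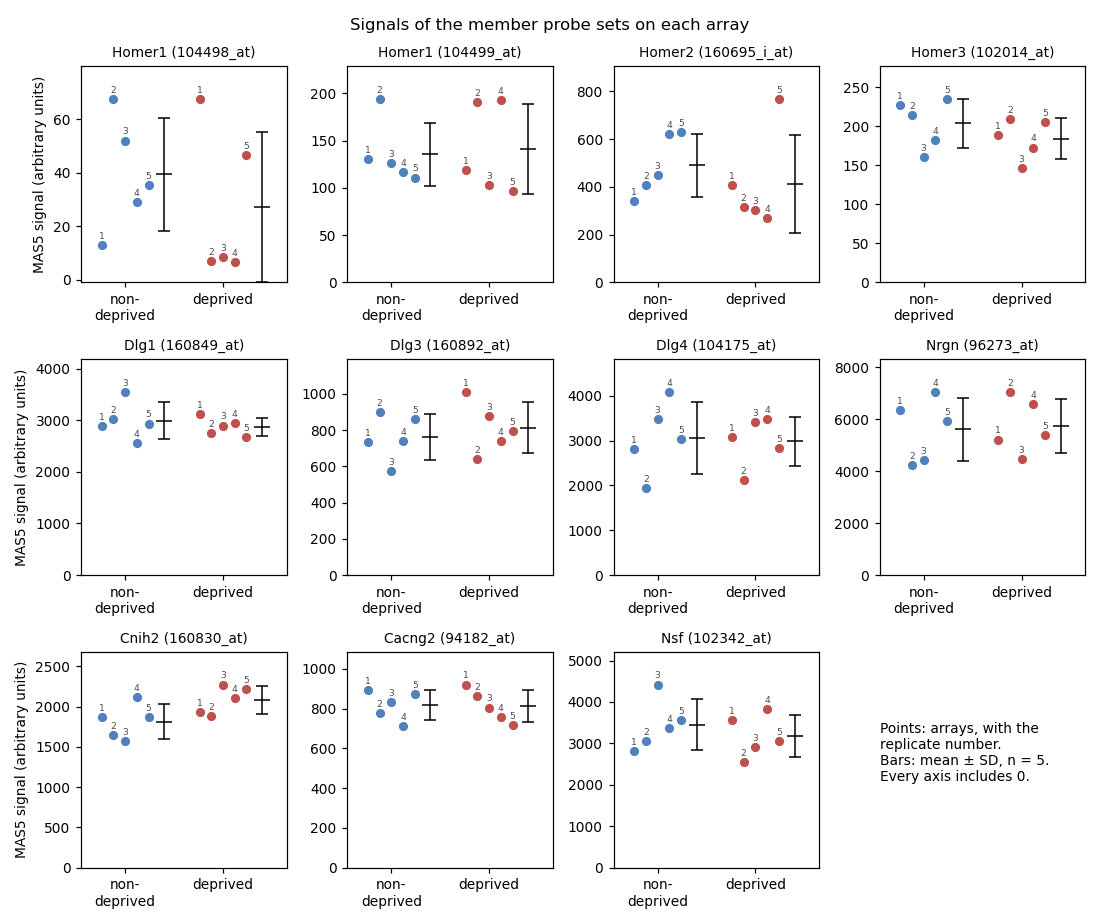
MAS5 signal in arbitrary units of each of the 11 member probe sets on the 5 non-deprived (blue) and 5 deprived (red) arrays, with replicate numbers and the mean ± SD of each group beside the points. In every panel the 2 groups overlap, with Cnih2, for example, at 1885 to 2273 on deprived and 1572 to 2114 on non-deprived arrays.

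The Homer genes, which link receptors to internal calcium stores and scaffolds, were measured on dim to intermediate probe sets. The brighter Homer1 probe set (104499_at) had signals of 119, 191, 103, 193 and 97.0 in deprived replicates 1 to 5. The non-deprived replicates 1 to 5 gave 130.2, 194, 126, 117 and 111. Thus 3 of the arrays stood at 191 to 194 (deprived replicates 2 and 4, non-deprived replicate 2), and the other 7 between 97.0 and 130.2. The means were 141 ± 47.7 in deprived and 136 ± 33.4 in non-deprived cortex (SD, n = 5 each), and the log2 difference was 0.02 with a 95% interval from -0.44 to 0.49. Changes to 0.735-fold or 1.40-fold thus remain within the interval. Its mean log2 level of 7.23 lay just above the filter, at 7.04, and its estimate was -0.04 after quantile normalization and -0.0092 when arrays were scaled to a common median.

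The second Homer1 probe set (104498_at) was dimmer still and did not pass the filter. Its signals were 67.4, 7.0, 8.5, 6.7 and 46.6 in deprived replicates 1 to 5. In non-deprived replicates 1 to 5 they were 13.0, 67.6, 52.0, 29.1 and 35.2. Deprived replicates 2, 3 and 4 lay below every non-deprived array, and deprived replicate 1 was within 1 unit of the highest of them. In the limma fit without a filter its log2 difference was -0.50, with an interval from -1.37 to 0.36. The adjusted p from limma was 0.959. The table that names the probe sets does not say which Homer1 transcripts each one reads, so the short and the long forms were not separated here.

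Homer2 and Homer3, which share the receptor-binding domain of Homer1, had lower means in deprived cortex that did not pass. Homer2 was read by a probe set with an incomplete number of probes (160695_i_at). It had signals of 409, 314, 303, 269 and 767 in deprived replicates 1 to 5, and 339.7, 409, 449.8, 621 and 631 in non-deprived replicates 1 to 5. Deprived replicates 2, 3 and 4 were below every non-deprived array, and deprived replicate 5 was the highest of all 10. The log2 difference was -0.31 ± 0.25 (SE), with an interval from -0.84 to 0.23 and an adjusted limma p of 0.992. Without deprived replicate 5 it was -0.55, at an unadjusted limma p of 0.0108 and an adjusted p of 0.9994. Over all 18 alternative settings it ran from -0.55 to -0.19. The unadjusted limma p was under 0.05 in that 1 setting only. Homer3 (102014_at) ran from 146 to 209 with a median of 188.5 in deprived cortex, and from 160.4 to 234.5 with a median of 215 in non-deprived cortex. All 5 deprived arrays lay under the non-deprived median, and the log2 difference was -0.13 ± 0.14 (SE; interval -0.44 to 0.18).

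A Homer1 promoter is shown because the gene is known to respond to activity, and that of Cnih2 because it had the smallest p of the members. The 250 bases before an annotated start, from RefSeq on GRCm38.p6, are given 5' to 3', in lower case with each TGACG, on either strand, in capitals. TGACG is the core of the cAMP response element, the sequence that CREB family factors bind.
Homer1, chr13:93303507-93303756, plus strand: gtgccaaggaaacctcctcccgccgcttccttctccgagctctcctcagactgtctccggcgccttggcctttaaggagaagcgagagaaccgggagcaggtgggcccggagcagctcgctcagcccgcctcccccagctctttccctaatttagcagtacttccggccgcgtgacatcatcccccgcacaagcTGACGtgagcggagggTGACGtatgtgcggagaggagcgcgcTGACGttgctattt
Cnih2, chr19:5098522-5098771, minus strand: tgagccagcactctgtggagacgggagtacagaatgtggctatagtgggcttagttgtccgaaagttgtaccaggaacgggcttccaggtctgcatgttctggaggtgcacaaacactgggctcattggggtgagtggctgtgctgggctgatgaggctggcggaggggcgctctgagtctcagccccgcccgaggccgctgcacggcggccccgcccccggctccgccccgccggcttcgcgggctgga
In the first of 2 annotated Homer1 promoters, TGACG began 56, 40 and 14 bases before the start, while the second and the Cnih2 promoter held none. At least 1 TGACG on either strand was found in 17.8% of all 32851 windows of this length, and 3 or more in 0.688%. All 10 genes matched the promoter table, with 18 windows, of which 3 held TGACG: 1 each of Homer1, Dlg4 and Dlg3. The palindromic full element TGACGTCA was in 1.55% of all windows. TGANTCA, a loose form of the AP-1 element with any base at N, was in 6.75%. GCGGGGGCG on either strand, a form of the EGR element, was in 2.57%. These 3 sequences were in none of the 18 member windows. A TGACGTCA also counts as TGACG. A match describes letters only, and no match says nothing of a factor.

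The Dlg scaffolds, which anchor receptors at the postsynaptic density, had small estimates with intervals on both sides of 0, the widest for Dlg4. Dlg4 (104175_at) had signals of 3078, 2121, 3408, 3480 and 2831 in deprived replicates 1 to 5. It had 2803, 1931, 3473, 4086 and 3038 in non-deprived replicates 1 to 5. The arrays numbered 2 were the lowest of both groups, and all 5 deprived arrays lay within the wider range of the non-deprived ones. The log2 difference was -0.02 ± 0.18 (SE), with an interval from -0.40 to 0.37, and it turned positive (0.0097) under quantile normalization. Dlg1 (160849_at) was the more tightly measured. Its signals ran from 2666 to 3115 (median 2895) in deprived and from 2553 to 3547 (median 2935) in non-deprived cortex. Its log2 difference of -0.05 had an interval from -0.24 to 0.14, that is 0.846-fold to 1.10-fold. Dlg3 (160892_at) ran from 640.5 to 1010 (median 795) in deprived and from 574 to 902 (median 738) in non-deprived cortex. Of the 5 deprived arrays, 4 were above the non-deprived median of Dlg3, and the log2 difference was 0.09 ± 0.14 (SE; interval -0.21 to 0.39).

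**Figure D2:**
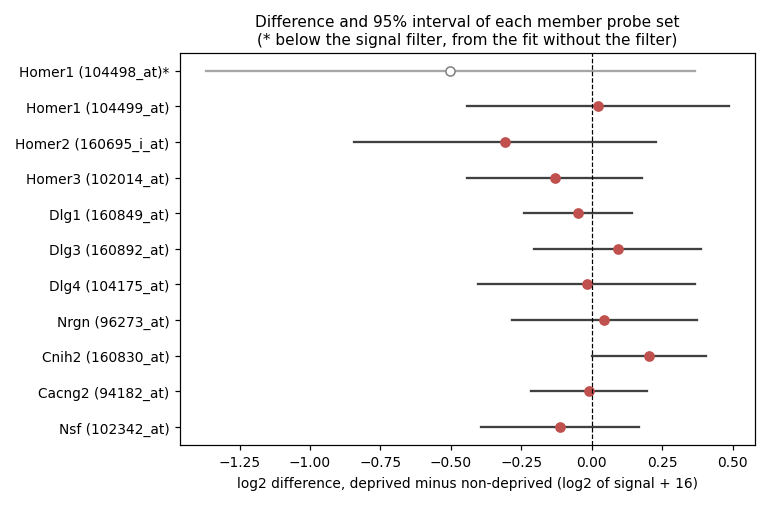
Log2 difference (deprived minus non-deprived, on log2 of signal + 16) of each member probe set with its 95% interval from limma; the open symbol is the Homer1 probe set below the filter. All intervals include 0 apart from that of Cnih2, which runs from 0.0011 to 0.40.

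Cnih2, which slows the closing of AMPA receptors and aids their export, had the smallest p of the members. Its signals (160830_at) were 1931, 1885, 2273, 2109 and 2219 in deprived replicates 1 to 5. They were 1865, 1647, 1572, 2114 and 1866 in non-deprived replicates 1 to 5. All 5 deprived arrays were above the non-deprived median, 2 of them above every non-deprived array, and non-deprived replicate 4 stood among the deprived ones. The means were 2083 ± 171 against 1813 ± 213 (SD, n = 5 each), or 14.9% higher in deprived cortex. The log2 difference was 0.20 ± 0.09 (SE; unadjusted limma p = 0.0490, adjusted p = 0.992), and the exact two-sided permutation p over 252 assignments of the arrays was 0.0476. It stayed above 0 in all 18 alternative settings (0.15 to 0.26), with an unadjusted limma p under 0.05 in 8 of them (range 0.0146 to 0.124) and an adjusted p from 0.757 to 0.9997. The unadjusted p was above 0.05 under median scaling, when no intensity trend was fitted, when the filter was raised to the 60th percentile, and without deprived replicates 3, 4 or 5 or non-deprived replicates 1, 2, 3 or 5.

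The other members had intervals on both sides of 0. Cacng2, which carries AMPA receptors to the synapse (94182_at), ran from 717 to 921 (median 805) in deprived and from 711 to 891 (median 834) in non-deprived cortex. Its log2 difference of -0.0098 had an interval from -0.22 to 0.20, or 0.861-fold to 1.15-fold, and turned positive (0.003) under quantile normalization. Nrgn (96273_at) had signals of 5220, 7056, 4486, 6596 and 5393 in deprived replicates 1 to 5, and 6358, 4254, 4436, 7051 and 5950 in non-deprived replicates 1 to 5. Both groups of Nrgn spread over nearly the same range, and the log2 difference was 0.04 ± 0.15 (SE; interval -0.28 to 0.37). Nsf (102342_at) ran from 2540 to 3825 (median 3059) in deprived and from 2818 to 4422 (median 3371) in non-deprived cortex. Its log2 difference was -0.11 ± 0.13 (SE; interval -0.39 to 0.17).

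The precision differed among the members. The SD of log2 signals within groups was 0.134 for Dlg1, 0.136 for Cacng2 and 0.145 for Cnih2. It was 0.350 for Dlg4, 0.367 for Homer1 (104499_at) and 0.491 for Homer2, the widest of the 10 tested, while Homer3 had 0.204. The median over the members was 0.244, against 0.198 over all tested probe sets. The 95% interval reached a median of 0.30 to either side of the estimate for the members and 0.27 for all tested probe sets, both on the log2 scale. Small differences in Homer1 and Homer2 were thus the least detectable with these arrays.

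With the group means taken out, the members' signals varied both together and against each other over the 10 arrays. Of 45 pairs of tested member probe sets, 21 had a Pearson r above 0, and r ran from -0.753 to 0.609. The highest was between Dlg1 and Nsf (r = 0.609, exact within-group permutation p = 0.0828; Spearman rho = 0.588, exact permutation p = 0.102), and r was 0.578 without the 2 arrays farthest out in Dlg1. The lowest was between Dlg1 and Cnih2 (r = -0.753, exact permutation p = 0.0302; rho = -0.612, exact permutation p = 0.0863). Without the 2 arrays farthest out in Dlg1 that r was -0.361. This leaves a narrower range of Dlg1, so it cannot show whether the relation rested on those arrays. After Benjamini-Hochberg adjustment over the 45 pairs the smallest value was 0.620 for r and 0.663 for rho, and no pair passed. Among 6741 other tested probe sets of single genes, those most like Cnih2 over the 10 arrays were Gabrd (r = 0.885), Cyba (0.880) and Psmd11 (0.870), the highest of that many values. Their own log2 differences were -0.14, -0.0049 and 0.10.

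**Figure D3:**
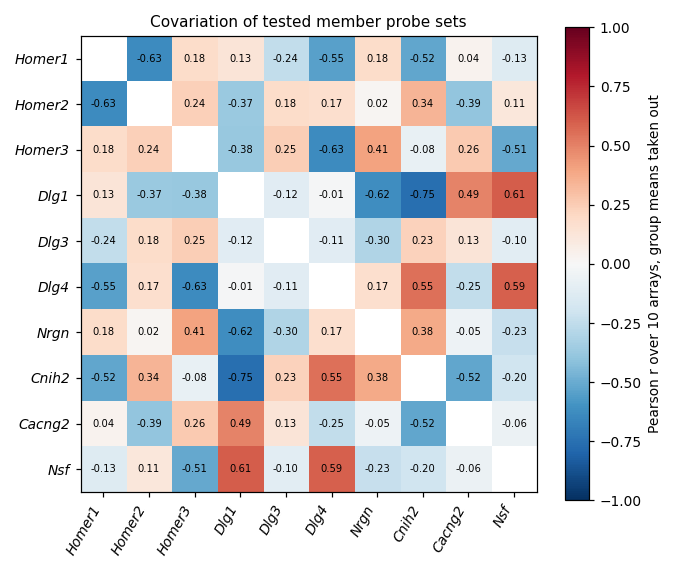
Pearson r between the tested member probe sets over the 10 arrays, computed on log2 signals after each group's mean was taken out; red is positive and blue negative. Values run from -0.753 (Dlg1 with Cnih2) to 0.609 (Dlg1 with Nsf), and 21 of 45 are above 0.

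Other genes of the same pathway, listed by role, were read from the same fit. Of 72 listed genes, 39 had a probe set and 32 a tested one. None passed an adjusted p of 0.05. At an unadjusted p under 0.05 there was 1 lower, Cnih1, and none higher, or 3.12% against 4.79% of all tested probe sets. The count was 2 under quantile normalization (Cnih1 and Grin2c, 6.25% against 4.64% of all) and 3 under median scaling (Cnih1, Grin2c and Napa, 9.38% against 4.95%). With the replicate number as a block, though the labels do not pair the arrays, it was 4 (12.5% against 6.33%). Those were Cnih1, Camk2a, Napa and Grin2c. In the main setting the estimates lay above 0 for 13 and below 0 for 19 of the 32, and the median was -0.02.

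Cnih1, the closest listed relative of Cnih2 with a probe set and an export factor for secreted and membrane cargo, had the opposite sign. Its signals (97528_at) were 1199, 1109, 1201, 999.7 and 1282 in deprived replicates 1 to 5. They were 1366, 1808, 1410, 1362 and 1497 in non-deprived replicates 1 to 5. The groups did not overlap for Cnih1, alone among the 32 tested pathway genes, against 0.953% of all tested probe sets. All 5 deprived arrays were below all 5 non-deprived arrays. The log2 difference was -0.35 ± 0.10 (SE), with an interval from -0.57 to -0.14, an unadjusted limma p of 0.00301 and an adjusted p of 0.864. It lay between -0.39 and -0.28 in 18 alternative settings, where the unadjusted limma p ran from 0.00163 to 0.00894 and the adjusted p from 0.549 to 0.9997. The difference between Cnih1 and Cnih2 in their response was not tested, since the pair was noticed after the values were seen. Cnih3, the other listed cornichon gene, was not analysed here.

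**Figure D4:**
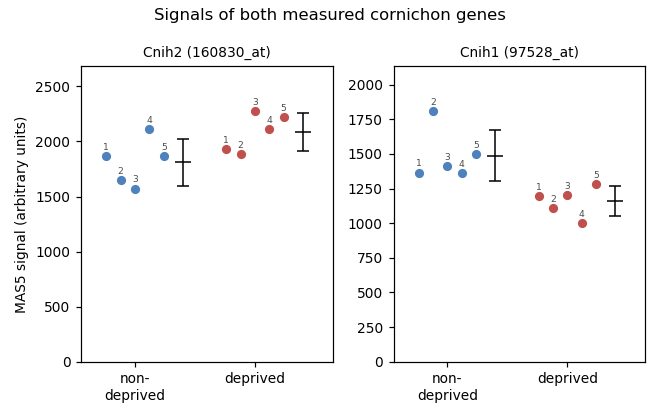
MAS5 signal in arbitrary units of Cnih2 and Cnih1 on the 5 non-deprived (blue) and 5 deprived (red) arrays, with replicate numbers and the mean ± SD of each group. Cnih2 groups overlap (deprived 1885 to 2273, non-deprived 1572 to 2114), while the Cnih1 groups do not (deprived 999.7 to 1282, non-deprived 1362 to 1808). Groups do not overlap for 0.953% of all tested probe sets.

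By role, the 6 tested glutamate receptor genes had a median log2 difference of -0.07. The smallest p among them belonged to Grin2c, an NMDA receptor subunit (-0.23 ± 0.11 SE). The 4 Homer targets and density scaffolds had a median of -0.06, with Agap2, a GTPase-activating protein, at 0.10 ± 0.10. The 7 relatives and partners of the Dlg proteins had a median of 0.03, with the guanylate kinase Mpp3 at -0.12 ± 0.13. The 2 AMPA receptor auxiliary and trafficking genes were Cnih1 and the PDZ protein Pick1, at 0.05 ± 0.17. A second, slightly dimmer Pick1 probe set (161638_f_at) was at 0.09 ± 0.12 (SE). All 5 calmodulin genes and calmodulin-binding genes had estimates below 0 (median -0.09), as did 3578 of all 7453 tested probe sets. The kinase Camk2a was at -0.29 ± 0.18, and its second, dimmer probe set (93659_at) at -0.17 ± 0.21 (SE). The 8 partners of Nsf had a median of 0.02, with Napa, the adaptor that brings Nsf to SNARE complexes, at -0.27 ± 0.14. Of these partners, Napb, Vamp2 and Arrb1 each had a second tested probe set, dimmer than the one used and with a lower log2 difference. For Napb, a relative of Napa, the value was -0.28 ± 0.13 (SE; 92952_f_at, limma adjusted p = 0.992) against -0.02 ± 0.09, and it passed 0.05 before adjustment only. For Vamp2, a SNARE protein of vesicles, it was -0.25 ± 0.17 (98925_at) against 0.01 ± 0.08. For Arrb1 it was 0.0016 ± 0.13 (100473_at) against 0.06 ± 0.11. Grin2c, Agap2, Mpp3, Pick1, Camk2a and Napa had adjusted limma p-values of 0.992 or above. Of all tested probe sets, the central 90% lay between -0.23 and 0.26, which held 9 of the 10 members and, by their brightest probe sets, 29 of the 32 pathway genes. The second probe sets of Napb and Vamp2 lay below it.

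**Figure D5:**
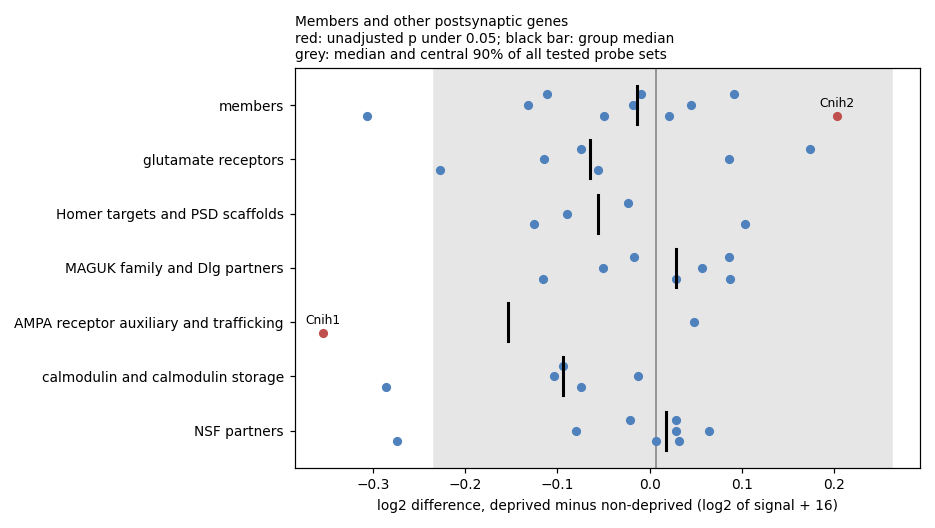
Log2 difference (deprived minus non-deprived, on log2 of signal + 16) of each tested member and of each listed pathway gene by role, with red for an unadjusted limma p under 0.05. Black bars are group medians; the grey band is the central 90% of all tested probe sets (-0.23 to 0.26), outside which lie Homer2 among the members and 3 pathway genes.

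No marker list of another cell type or tissue passed an exact test of its summed signal. The summed signal of 9 microglial markers ran from 5663 to 6169 in deprived and from 5167 to 5962 in non-deprived cortex, with an exact two-sided permutation p of 0.0794. For the 7 inhibitory neuron, 5 astrocyte, 6 oligodendrocyte and 7 vascular markers the exact permutation p was 0.302, 0.571, 0.683 and 0.476. It was 0.508 for 4 markers of thalamus or striatum, 0.5 for 3 of erythrocytes and 0.881 for the excitatory neuron markers. Tested singly were 4 excitatory neuron, 7 inhibitory neuron, 5 astrocyte, 5 oligodendrocyte, 8 microglial, 7 vascular, 4 thalamus or striatum and 3 erythrocyte markers. Of all these, 1 had an unadjusted limma p under 0.05, the astrocyte glutamate transporter gene Slc1a2 (log2 0.38). The share over all tested probe sets was 4.79%. The part of cell content in the values of Cnih2 and Cnih1 was not tested.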

How the data were processed

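Visual cortex RNA was hybridised to 10 one-colour arrays, 5 per group. The authors deposited linear intensities, 1 for each probe set on each array; per the submitters' processing notes these are MAS5 signals, with the version and scaling target not given in the sources used here. Deposited array means, trimmed by 2% at each end, were all 500, so arrays had been scaled before deposit and changes are relative to the array average. Detection calls were not used here; the number of arrays limits precision.

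Controls (66 probe sets) were removed. Gene names came from the platform annotation, updated through Entrez IDs: 10833 probe sets had 1 symbol, 396 several and 1193 none. Intensities were turned into log2(value + 16), 16 being the 10th percentile of all values, which understates changes of dim probe sets. Probe sets with a mean under the 40th percentile were dropped, leaving 7453. Groups were read from sample titles and compared across all of these probe sets with limma 3.58.1 in R 4.3.3 (lmFit, eBayes with an intensity trend, no covariate), with Benjamini-Hochberg adjustment; the fit was checked on simulated data. Single values were compared with exact permutation tests, correlations with 14400 permutations within groups (Python 3.11.15). A pathway gene was represented by its brightest tested probe set. The members, the pathway lists and the marker lists were chosen with earlier results of these data known. Named are all member probe sets and the 1 pathway gene per role with the smallest p. Also named are the 3 probe sets most like the member with the smallest p. Pick1, Slc1a2, Napb, Vamp2 and Arrb1 were named after their values were seen. Alternatives were other pseudocounts (1 and 35), filters, normalizations, no trend, each array left out, and the replicate number as a block.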

Additional observations from a re-analysis of the deposited data

Results flagged for a closer look

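Among 22 groups of 5 arrays (11 probe sets in 2 groups), 1 held a value set far apart from the rest, where chance gives about 1 in 20. Non-deprived replicate 2 had a Homer1 signal (104499_at) of 193.7, against 110.9 to 130.2 on the other 4 arrays of its group. The gap to its neighbour was 0.718 of the group's range on the log2 scale, above Dixon's critical value of 0.71. Deprived replicates 2 and 4 had similar Homer1 signals, of 191 and 193. Without non-deprived replicate 2 the log2 difference of Homer1 was 0.14, at an adjusted limma p of 0.999.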

How the results depend on the processing

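Over 18 alternatives (17 for Homer1 and Homer3, which the filter at the 60th percentile removes) none of the 10 tested member probe sets passed an adjusted limma p of 0.05, and Homer2, Homer3, Cnih2, Nsf and the 6 pathway genes with the smallest p per role kept their sign. Signs turned for members near 0. Quantile normalization gave -0.0353 for Homer1, 0.0097 for Dlg4 and 0.003 for Cacng2, and median scaling gave -0.0092 for Homer1. With single arrays left out, the log2 difference ran from -0.0965 to 0.1442 for Homer1, from -0.1047 to 0.0133 for Dlg1, from -0.0045 to 0.1711 for Dlg3, from -0.1731 to 0.0987 for Dlg4, from -0.0479 to 0.1339 for Nrgn and from -0.0581 to 0.0332 for Cacng2. The member count at an unadjusted p under 0.05 was 0 with a filter at the 60th percentile, under median scaling and without an intensity trend, and 0 to 1 without single arrays. The pathway count at that p was 2 under quantile normalization, 3 under median scaling, 4 of 32 (12.5%) with the replicate block and 1 to 2 without single arrays. The shares of all tested probe sets were 4.64%, 4.95%, 6.33% and 3.53% to 5.69%. The 4 under the block were Cnih1, Camk2a, Napa and Grin2c. The count over all probe sets at an adjusted p of 0.05 was 2 with 35 as the pseudocount, 2 when filtering at the 60th percentile, 6 with the replicate block, 5 without non-deprived replicate 1, 1 without deprived replicate 4 and 0 without any other single array; no member was among them. The causes were not tested. Same-numbered arrays of the 2 groups, with group means taken out, correlated at 0.140, 0.182, 0.222, 0.227 and 0.0222 for replicates 1 to 5. Replicates 1 to 4 correlated best with their own number (at most 0.0883 with another). So did the non-deprived array of replicate 5 (at most 0.0118 with another), while its deprived array reached 0.0311 with another number. The labels do not pair the arrays, so the block is an alternative only. Same-numbered pairs were compared only for the 10 tested members and the 6 pathway genes with the smallest p per role. Of these, Homer3, Cnih1, Camk2a and Napa were lower in the deprived array of all 5 pairs. The share of all tested probe sets with that pattern was not computed, so no result is drawn from it. Dim probe sets (both of Homer1, Homer3) limit what can be read from their values.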
